A study of Homo sapiens with 6 samples.

Results

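The carcinoembryonic antigen-related cell adhesion molecules (CEACAMs) were examined in YAPC, a human pancreatic ductal adenocarcinoma (PDA) line of the classical subtype. The members are 5 genes, CEACAM1, CEACAM5, CEACAM6, CEACAM7 and CEACAM19, taken by name from the 25442 genes of the expression table, and they were picked with their response to GLI2 already known. Their differences between the groups are therefore described and carry no test. RNA-seq was run on 6 libraries. The 3 YAPC-iGLI2 libraries came from cells with the doxycycline (Dox)-inducible retroviral vector pRetroX-Tight-Puro carrying human GLI2, a transcription factor of the Hedgehog pathway. The 3 YAPC-iEV libraries came from cells with the same vector left empty. Both groups received Dox for 6 days in full growth medium, so the comparison is of GLI2 against empty vector in the presence of Dox, and no library without Dox was among them. It is not stated whether each engineered line was a clone or a pool, nor whether the libraries of a group came from separate cultures, so the spread between them may be technical.

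CEACAMs are cell surface proteins of the immunoglobulin superfamily that bind each other between cells. CEACAM1 crosses the membrane and, in its long form, carries tyrosine motifs in its cytoplasmic tail that recruit the phosphatases PTPN6 and PTPN11, while CEACAM5 (the tumour marker CEA), CEACAM6 and CEACAM7 are held in the outer leaflet of the membrane by a glycosylphosphatidylinositol (GPI) anchor. CEACAM19 is a more distant transmembrane relative. CEACAM5 and CEACAM6 are abundant in gastrointestinal adenocarcinomas and belong to a published signature of the classical PDA subtype, and GLI2 was expressed in YAPC to ask whether it shifts such cells towards the basal-like subtype.

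The stretches just upstream of 4 members are shown first, because CEACAM5 and CEACAM6, the members that were higher with GLI2, could be set against CEACAM1, which was not higher, and CEACAM7, which was at or near 0 in every library. These are the 250 bases before the RefSeq start of each gene (build GRCh38.p14), read in the direction of transcription. The palindrome CACGTG, an E-box bound by the USF factors, was searched for, and capitals mark the 6 bases that hold it or that align to it. Other forms of the E-box were not searched for.
CEACAM5 (chr19:41708376-41708625, plus strand): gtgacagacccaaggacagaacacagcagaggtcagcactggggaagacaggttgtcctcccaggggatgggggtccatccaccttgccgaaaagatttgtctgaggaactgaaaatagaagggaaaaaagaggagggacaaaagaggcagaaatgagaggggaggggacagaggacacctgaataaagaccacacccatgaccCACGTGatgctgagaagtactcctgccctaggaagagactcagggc
CEACAM6 (chr19:41755280-41755529, plus strand): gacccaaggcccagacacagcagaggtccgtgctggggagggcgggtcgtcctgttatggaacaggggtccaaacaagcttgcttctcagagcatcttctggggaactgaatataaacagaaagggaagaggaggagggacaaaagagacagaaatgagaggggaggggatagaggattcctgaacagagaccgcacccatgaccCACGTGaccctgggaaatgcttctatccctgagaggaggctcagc
CEACAM7 (chr19:41688271-41688520, minus strand): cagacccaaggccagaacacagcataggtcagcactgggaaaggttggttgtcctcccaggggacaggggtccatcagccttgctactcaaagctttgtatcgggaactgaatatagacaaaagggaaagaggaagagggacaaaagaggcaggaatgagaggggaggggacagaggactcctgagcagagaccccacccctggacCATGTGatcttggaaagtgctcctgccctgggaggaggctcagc
CEACAM1 (chr19:42528482-42528731, minus strand): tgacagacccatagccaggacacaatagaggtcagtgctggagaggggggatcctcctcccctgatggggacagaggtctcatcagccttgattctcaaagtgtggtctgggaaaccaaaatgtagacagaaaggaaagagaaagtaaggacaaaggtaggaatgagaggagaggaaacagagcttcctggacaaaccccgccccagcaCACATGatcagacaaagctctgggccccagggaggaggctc
CACGTG was found in the CEACAM5 window at positions -46 to -41 and in the CEACAM6 window at -45 to -40, counted back from the start. The aligned bases were CATGTG in CEACAM7 (C3T, counted from 1 at the first base of CACGTG) and CACATG in CEACAM1 (G4A). CACGTG is present in 2228 of 35116 windows of this length upstream of RefSeq genes (6.34%). The GC box GGGCGG of SP factors, searched on both strands, occurred in the windows of CEACAM6 and CEACAM1, and in 42.6% of all windows. The GLI consensus GACCACCCA, searched on both strands, occurred in none of the 4 windows and in 0.199% of all windows. At that share its absence from 4 windows says little. The GLI sites that the study amplified at SPP1 and BCL2 lie further upstream than these windows reach, so sites at such distances could not be found. None of these motifs overlapped another in the 4 windows. The upstream windows resembled each other closely, with 84.4% identical aligned bases between CEACAM5 and CEACAM7, 78.5% between CEACAM5 and CEACAM6, and 72% between CEACAM5 and CEACAM1, so the CEACAM5 window was closer to that of CEACAM7 than to that of CEACAM6. A matching word describes the sequence and does not show binding. The members were picked on their response to GLI2, and their windows resemble each other, so they are not independent. The share of CACGTG over all windows is therefore no yardstick for these 4, and a link between CACGTG and the response was not tested.

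The primers that the study used for quantitative PCR of CEACAM5 and CEACAM6 were set against the transcripts of their relatives. Each matched a single place on chromosome 19 of GRCh37, in coding exons of the MANE Select transcript. They are printed in lower case throughout.
CEACAM5 forward (chr19:42224042-42224064, plus strand, exon 7): aagaaatgacgcaagagcctatg
CEACAM5 reverse (chr19:42224872-42224893, minus strand, exon 8): cccgaaaggtaagacgagtctg
CEACAM6 forward (chr19:42265991-42266011, plus strand, exon 4): tcaatgggacgttccagcaat
CEACAM6 reverse (chr19:42270124-42270143, minus strand, exon 5): cactccaatcgtgatgccga
The CEACAM5 primers enclose 138 bases of the transcript and the CEACAM6 primers 194 bases. With positions numbered from 1 at each primer's 5′ end, the CEACAM6 forward primer differed from CEACAM5 by G11T alone and the reverse primer by G11A alone, at places in the CEACAM5 transcript whose outer ends lie 1268 bases apart. From CEACAM8 the CEACAM6 forward primer differed by G8C and G11A. The CEACAM5 primers differed by at least 4 bases from every other family transcript. Of all 50-base stretches, 4.79% in CEACAM6, 4.18% in CEACAM1 and 2.67% in CEACAM5 also occurred in another family transcript, and none did in CEACAM7 or CEACAM19. At 50 bases CEACAM1, CEACAM5 and CEACAM6 shared stretches with each other among others. At 75 bases these shares were 0.159%, 1.29% and 0.117%, and the sharing transcripts were those of CEACAM3 and CEACAM8 only. Reads from such stretches could have been assigned to either gene, and neither the read length nor the handling of such reads is given in the sources used here.

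Levels are given as FPKM, fragments scaled by transcript length and library size, a unit that takes gene length into account. GLI2 itself, the check of the labels, was at 0.466, 0.412 and 0.344 FPKM in YAPC-iEV replicates 1 to 3 and at 94.5, 207 and 195 FPKM in YAPC-iGLI2 replicates 1 to 3. GLI2 was thus lowest, among the induced libraries, in replicate 1. Summed over all genes, a library held 981344 to 1082687 FPKM in YAPC-iEV and 803149 to 889559 FPKM in YAPC-iGLI2. Testing covered the 12493 genes whose mean over all libraries reached 1 FPKM, and limma called 21.9% of them at an adjusted p under 0.05, 10.1% as higher and 11.8% as lower with GLI2. The median log2 difference over those genes was -0.01. Of the epithelial markers, EPCAM was at 418, 401 and 396 FPKM in YAPC-iEV and 526, 521 and 523 FPKM in YAPC-iGLI2 and rose (log2 difference 0.37; limma, adjusted p = 0.00709). CDH1 rose from 53.2 ± 2.77 to 68.9 ± 3.88 FPKM (SD, n = 3 each; log2 difference 0.37; limma, adjusted p = 0.0169), in the direction of CEACAM5 and CEACAM6. KRT19 was at 577 to 682 FPKM in YAPC-iEV and 521 to 578 FPKM in YAPC-iGLI2 and was not called. KRT8 and KRT18 were listed at 0 in all 6, although cells of this kind are known to make both. A listed 0 was therefore not read as absence. Leukocyte markers, which matter because granulocytes make several CEACAMs, summed to at most 0.425 FPKM over 9 genes in any library. The 4 endothelial markers summed to at most 0.599 FPKM. The 5 fibroblast markers summed to 1.35 to 1.57 FPKM in YAPC-iEV and 2.30 to 3.01 FPKM in YAPC-iGLI2, nearly all of it COL1A1, with DCN at 0 in every library. The part of these epithelial and other markers in the CEACAM results was not tested.

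CEACAM5 and CEACAM6, the GPI-anchored pair, were higher in every YAPC-iGLI2 library than in any YAPC-iEV library. CEACAM5 (chr19:42212504-42234341 in hg19, plus strand) was at 2.02, 1.82 and 1.86 FPKM in YAPC-iEV, a mean of 1.90 ± 0.106 FPKM (SD, n = 3). In YAPC-iGLI2 it was at 5.45, 7.13 and 8.33 FPKM, a mean of 6.97 ± 1.44 FPKM (SD, n = 3). The control libraries lay close together and the induced ones were spread over a wider range, with replicate 1 lowest. The ratio of the mean FPKM was 3.67, and the difference of the group means of log2(FPKM + 1) was 1.44, which understates the ratio because 1 was added to small values. On that scale 2.10% of the genes tested had a larger increase.

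CEACAM6 (chr19:42259428-42276113, plus strand), which lies downstream of CEACAM5 in the same orientation, was at 6.00, 4.44 and 3.76 FPKM in YAPC-iEV (4.74 ± 1.15, SD, n = 3). It was at 19.4, 15.4 and 16.8 FPKM in YAPC-iGLI2 (17.2 ± 2.04, SD, n = 3). The gap between the groups was wider than the spread within either of them. The ratio of the mean FPKM was 3.64 and the difference on the log2(FPKM + 1) scale was 1.68, with 1.50% of the genes tested having a larger increase. The ratios of CEACAM5 and CEACAM6 were thus nearly equal, but their order among the induced libraries was not the same: replicate 1, with the least GLI2, had the lowest CEACAM5 and the highest CEACAM6. A readthrough transcript in the GENCODE annotation shares 139 exon bases with CEACAM5 and 138 with CEACAM6, and it was not separated from them here.

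CEACAM1 (minus strand), the inhibitory transmembrane member, was not higher with GLI2. It was at 17.1, 13.6 and 13.7 FPKM in YAPC-iEV (14.8 ± 1.99, SD, n = 3) and at 12.9, 12.2 and 13.4 FPKM in YAPC-iGLI2 (12.8 ± 0.625, SD, n = 3). The groups did not overlap, but the lowest control library exceeded the highest induced library by a ratio of only 1.02. The difference on the log2(FPKM + 1) scale was -0.19, and it was -0.09 without YAPC-iEV replicate 1, the library with the highest CEACAM1. The entry for CEACAM1 spans chr19:42901280-43156507, a locus that the table also gives for CEACAM8, CXCL17 and LIPE and for a merged entry that holds the antisense gene LIPE-AS1. In GENCODE the gene is chr19:43011456-43065386, and LIPE-AS1 on the opposite strand covers 131 of the 3491 exon bases of its MANE Select transcript. The library kit named in the labels was not stated to keep strand, so reads of the 2 genes cannot be told apart there. The merged entry was at 1.34, 0.643 and 0.634 FPKM in YAPC-iEV and 1.12, 2.16 and 1.66 FPKM in YAPC-iGLI2, well below CEACAM1 in each library. FPKM of the whole gene does not separate the long and short forms of CEACAM1.

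The remaining members were near or below the lower end of the tested range. CEACAM19 (chr19:45174724-45187627) was at 0.804, 1.19 and 1.43 FPKM in YAPC-iEV (1.14 ± 0.315, SD, n = 3) and at 0.508, 0.985 and 0.908 FPKM in YAPC-iGLI2 (0.800 ± 0.256, SD, n = 3). The groups overlapped, and its overall mean of 0.970 FPKM left it just under the minimum for testing. CEACAM7 (chr19:42177235-42192206), a marker of differentiated colon epithelium, was listed at 0.0159, 0 and 0 FPKM in YAPC-iEV and at 0.0123, 0.0138 and 0 FPKM in YAPC-iGLI2. Its level was at or near 0 in every library and no fold was formed. Of the 5 members, 3 passed the minimum of 1 FPKM, and in these 3 the groups did not overlap, 2 higher and 1 lower with GLI2. Over all genes tested the groups did not overlap in 42%, with 19.2% higher and 22.8% lower. Because the members were picked on this comparison, nothing is read from that count.

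**Figure D1:**
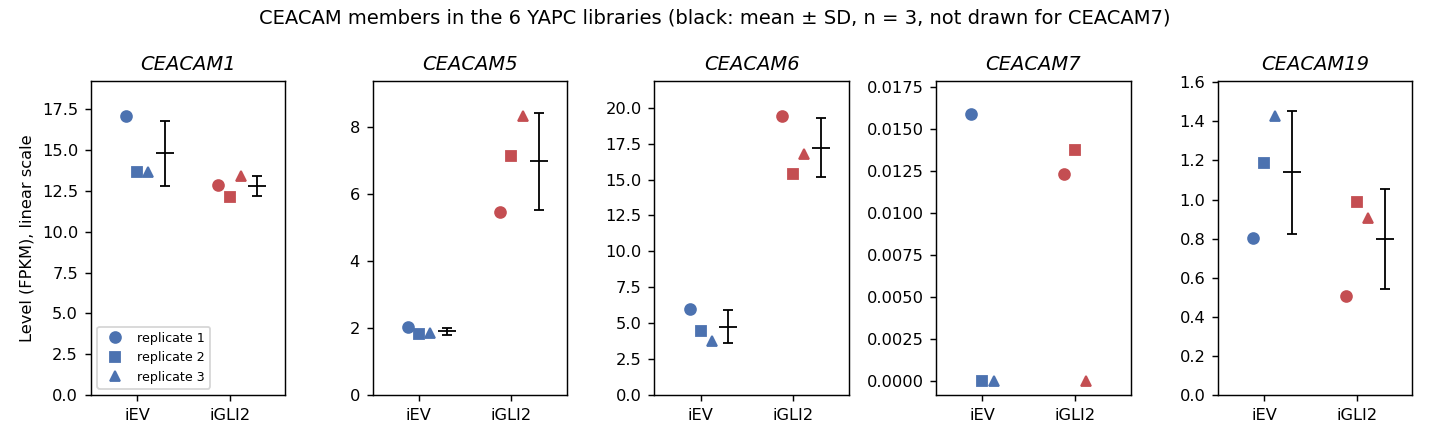
Level of each member in FPKM (linear vertical axis, scaled separately for each gene) in the 3 YAPC-iEV (blue) and 3 YAPC-iGLI2 (red) libraries, with symbols for the replicate number and mean ± SD in black where drawn. CEACAM5 and CEACAM6 are separated upward in YAPC-iGLI2, CEACAM1 is separated downward by a narrow gap, CEACAM19 overlaps, and CEACAM7 stays at or under 0.0159 FPKM.

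The order of the members differed between the groups. In YAPC-iEV the order of levels was CEACAM1, CEACAM6, CEACAM5, CEACAM19 and CEACAM7, and in YAPC-iGLI2 CEACAM6 stood above CEACAM1, with the rest in the same order. No pair of neighbours in either order overlapped in FPKM. By ratio, the nearest libraries were at 1.82 and 1.43 FPKM for CEACAM5 and CEACAM19 in YAPC-iEV and at 15.4 and 13.4 FPKM for CEACAM6 and CEACAM1 in YAPC-iGLI2. Among the genes tested, 10.8% had a lower mean level than CEACAM5 in YAPC-iEV and 36.5% in YAPC-iGLI2, while for CEACAM6 these shares were 27.2% and 61.7%. CEACAM5 was thus below the middle of the expressed range in both groups, and CEACAM6 was below it in YAPC-iEV and above it in YAPC-iGLI2.

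The summed level of the 5 members was 20.7 to 25.9 FPKM in YAPC-iEV and 35.7 to 39.4 FPKM in YAPC-iGLI2, a ratio of the means of 1.67. CEACAM1 was 65.5% ± 0.737 (SD, n = 3) of the sum in YAPC-iEV and 33.9% ± 0.222 in YAPC-iGLI2. CEACAM5 and CEACAM6 together were 29.2% ± 1.94 of it in YAPC-iEV and 64.0% ± 0.952 in YAPC-iGLI2. Singly these 2 genes varied more between the induced libraries, CEACAM5 from 14.2% to 21.1% of the sum and CEACAM6 from 42.6% to 50.8%. CEACAM19 was 3.10% to 6.89% of the sum in YAPC-iEV and 1.33% to 2.76% in YAPC-iGLI2. In FPKM, the GPI-anchored genes thus held the smaller part of the summed transcripts in all 3 control libraries and the larger part in all 3 induced libraries. The ratio of CEACAM6 to CEACAM1 within a library was 0.317 ± 0.0388 (SD, n = 3) in YAPC-iEV and 1.34 ± 0.143 in YAPC-iGLI2, and that of CEACAM5 to CEACAM1 was 0.129 ± 0.00970 and 0.544 ± 0.106. Ratios within a library do not depend on how libraries were scaled to each other. The ratio of CEACAM6 to CEACAM5, by contrast, overlapped between the groups, at 2.97, 2.44 and 2.02 in YAPC-iEV and 3.56, 2.16 and 2.02 in YAPC-iGLI2.

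**Figure D2:**
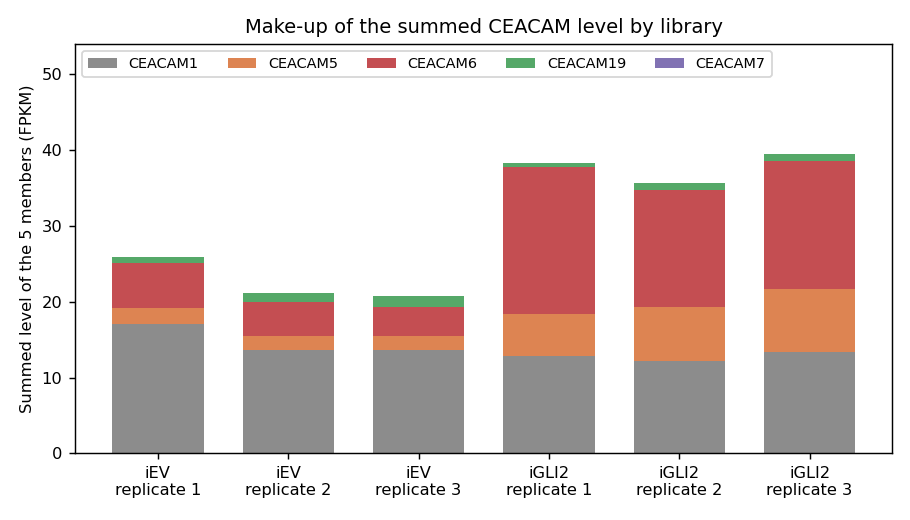
Summed FPKM of the 5 members in each of the 6 libraries, split by member (vertical axis in FPKM, starting at 0). The CEACAM1 part (grey) is of similar height throughout, whereas the CEACAM5 and CEACAM6 parts together make up a mean of 29.2% of the sum in YAPC-iEV and 64.0% in YAPC-iGLI2.

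The rest of the family was listed at low values or at 0. Of 20 other CEA family genes looked for, 19 were in the table, 14 of them were listed at 0 in all 6 libraries, among them all the pregnancy-specific glycoprotein (PSG) genes found, and none reached a mean of 1 FPKM. The pseudogene CEACAM22P was at 0.528, 0.795 and 0.803 FPKM in YAPC-iEV and at 0.390, 0.408 and 0.478 FPKM in YAPC-iGLI2. CEACAM8, a granulocyte marker, was at 0.130, 0.0794 and 0.148 FPKM in YAPC-iEV and at 0.139, 0.246 and 0.107 FPKM in YAPC-iGLI2. CEACAM8 overlapped between the groups, and CEACAM22P was lower in every YAPC-iGLI2 library without being tested.

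The genes around the members on chromosome 19 were then read from the fit over all genes. Of those tested, only RPS19, ARHGEF1 and RABAC1 lie within 200 kb of CEACAM5 or CEACAM6. The rest lie near CEACAM1 or CEACAM19. Within 200 kb of a member's locus as deposited, 20 other entries were tested, of which 2 rose (10% called, against 21.9% of all genes tested) and none fell, with a median log2 difference of 0.03. For CEACAM1 this was the wide shared locus. DEDD2, ZNF526, GSK3A, ERF and CIC, none of them called, lie more than 200 kb from the CEACAM1 gene of GENCODE and from every other member. At an unadjusted p under 0.05 limma gave 2 of the 20 entries, BCL3 and ARHGEF1, as lower, at log2 differences of -0.47 and -0.24. The 2 that rose were BCAM, the Lutheran laminin receptor near CEACAM19, and CNFN, which encodes cornifelin of the cornified envelope. BCAM was at 13.1, 13.9 and 11.6 FPKM in YAPC-iEV and 22.1, 41.1 and 41.9 FPKM in YAPC-iGLI2, a log2 difference of 1.33 ± 0.251 (SE; limma, adjusted p = 0.0155). CNFN was at 1.45, 1.54 and 1.26 FPKM and at 2.40, 2.49 and 3.49 FPKM, a log2 difference of 0.64 ± 0.131 (SE; limma, adjusted p = 0.0206). Neither reached the log2 difference of CEACAM5 or CEACAM6, which were picked on this comparison. The 18 other entries, RPS19, ARHGEF1 and RABAC1 between CEACAM6 and CEACAM1 among them, were not called. Each of the 2 calls was lost when some single libraries were left out.

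**Figure D3:**
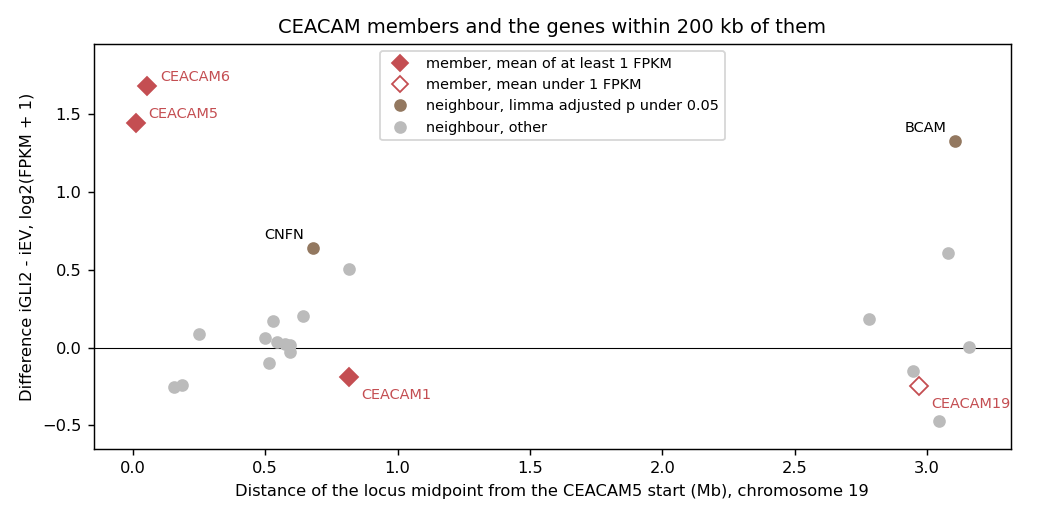
Difference of the group means of log2(FPKM + 1), YAPC-iGLI2 minus YAPC-iEV, against the distance in Mb from the start of CEACAM5, for 4 members (red diamonds, open where the mean is under 1 FPKM) and 19 tested neighbours (circles, brown where limma's adjusted p is under 0.05). The microRNA entry MIR8085, at 0 in 4 libraries, and CEACAM7, at or under 0.0159 FPKM in every library, are not drawn. CEACAM5 and CEACAM6, which were picked on this comparison, stand at 1.44 and 1.68, above all the neighbours drawn. Most of these neighbours lie near CEACAM1 or CEACAM19.

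Proteins that bind CEACAMs or carry their signal were read next. Of 22 such genes 19 were tested, and 6 rose and 3 fell (47.4% called, against 21.9% of all genes tested), with a median log2 difference of 0.07. This list and those that follow were chosen with earlier results of these data known. Their shares of calls are therefore description only, and no enrichment is read from them. ITGB1, the integrin beta chain that pairs with the fibronectin receptor chain ITGA5, was at 273, 265 and 270.0 FPKM in YAPC-iEV and 578, 531 and 514 FPKM in YAPC-iGLI2 (log2 difference 1.00 ± 0.0666, SE; limma, adjusted p = 5.54e-04). CALM2 fell by 0.29 on the log2 scale (limma, adjusted p = 0.0307, lost in 7 of 14 alternative settings). The kinases that phosphorylate the CEACAM1 tail also moved in opposite directions. FYN rose from 10.6 ± 0.441 to 19.1 ± 2.45 FPKM (SD, n = 3 each; limma, adjusted p = 0.00436), and SRC fell from 25.8 ± 2.27 to 16.1 ± 1.31 FPKM (SD, n = 3 each; limma, adjusted p = 0.00587). CTNNB1, the gene of beta-catenin, rose by a log2 difference of 0.28 and ANXA2, an annexin, fell by 0.39 on the log2 scale. The calls of ITGB1, FYN, SRC and ANXA2 held in all 14 alternatives, and that of CTNNB1 was lost without certain single libraries. Another 2 genes that rose, named after their values were seen, were ITGA5 and INSR, the insulin receptor. ITGA5 was at a log2 difference of 1.16 (limma, adjusted p = 0.0199) and INSR at 0.34 (limma, adjusted p = 0.0428). How these 2 calls held in the alternatives is not given. The phosphatases that the CEACAM1 tail recruits were not called, with log2 differences of -0.19 for PTPN6 and -0.20 for PTPN11.

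Factors known to act on CEACAM promoters or on the splicing of CEACAM1 formed another list. Of 10 genes 9 were tested by limma, 0 rose and 1 fell (11.1% called, against 21.9% of all genes tested), with a median log2 difference of -0.01. At an unadjusted p under 0.05, 0 were higher. The gene that fell was IRF1, an interferon response factor that acts on the CEACAM1 promoter, at 38.5, 51.8 and 50.2 FPKM in YAPC-iEV and 23.6, 30.7 and 29.6 FPKM in YAPC-iGLI2 (log2 difference -0.72 ± 0.151, SE; limma, adjusted p = 0.0218). The groups did not overlap for IRF1, but its call was lost when any of 4 single libraries was left out. USF1 and USF2, which bind CACGTG, were not called, with log2 differences of -0.14 and 0.26, nor were SP1 and SP3, with 0.12 and 0.19. HNF4A was at or under 0.0605 FPKM in every library.

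The enzymes that build the GPI anchor, which CEACAM5, CEACAM6 and CEACAM7 need to reach the cell surface, were read in the same way. Of 27 genes 25 were tested, and 3 rose and 1 fell (16% called, against 21.9% of all genes tested), with a median log2 difference of 0.06. PIGP, a subunit of the transferase that starts the anchor, was at 62.9, 66.6 and 62.5 FPKM in YAPC-iEV and 102, 115 and 105 FPKM in YAPC-iGLI2 (log2 difference 0.74 ± 0.0681, SE; limma, adjusted p = 0.00138). PIGF and PGAP1 rose by log2 differences of 0.33 and 0.51, and PGAP2, which acts in remodelling of the anchor lipid, fell by 0.35 on the log2 scale. Each of these 3 calls was lost without certain single libraries, while that of PIGP held in all 14 alternatives.

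Other adhesion proteins of the immunoglobulin superfamily were set beside the members. Of 36 genes 19 were tested, and 5 rose and 3 fell (42.1% called, against 21.9% of all genes tested), with a median log2 difference of 0.01. ALCAM, an adhesion protein that binds CD6, was at 52.2, 40.7 and 40.6 FPKM in YAPC-iEV and 94.4, 95.7 and 96.4 FPKM in YAPC-iGLI2 (log2 difference 1.09 ± 0.108, SE; limma, adjusted p = 0.00174). ESAM, known from endothelial junctions, was at 1.30, 1.71 and 1.40 FPKM and at 4.40, 4.68 and 4.85 FPKM (1.20 ± 0.0892, adjusted p = 7.44e-04 by limma). PVRL1, which encodes nectin-1, rose by a log2 difference of 0.71, and BCAM, already given, belonged to this list too. CXADR, the coxsackievirus and adenovirus receptor, was the fifth and was named after its values were seen, at 0.86 (limma, adjusted p = 0.0422). How its call held in the alternatives is not given. ICAM2, a ligand of leukocyte integrins, fell by 0.78 on the log2 scale, MCAM by 0.58 and CD47, the ligand of SIRP-alpha, by 0.44. The calls of BCAM, ICAM2 and CD47 were lost without certain single libraries, and that of CD47 also under rescaling without small RNA genes and under quantile normalization. None of the 19 had a log2 difference as large as that of CEACAM5 or CEACAM6. That pair was picked on this comparison, so nothing is read from the ranking.

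The final list held 17 other genes from the published classical signature to which CEACAM5 and CEACAM6 belong. It is not taken as the whole signature. Of 17 genes 15 were tested, and 3 rose and 4 fell (46.7% called, against 21.9% of all genes tested), with a median log2 difference of 0.00. TSPAN8, a tetraspanin, was at 12.7, 10.4 and 10.6 FPKM in YAPC-iEV and 29.7, 22.3 and 21.1 FPKM in YAPC-iGLI2 (log2 difference 1.04 ± 0.147, SE; limma, adjusted p = 0.00584). GPX2, a glutathione peroxidase, and PLS1, an actin bundler of microvilli, rose by 0.70 and 0.36. TMEM45B fell by 0.76 on the log2 scale, the calcium-binding protein gene S100P by 0.75, the forkhead factor FOXQ1 by 0.72 and the epithelial ETS factor ELF3 by 0.51. S100P, as an example, was at 546, 521 and 484 FPKM in YAPC-iEV and 279, 321 and 321 FPKM in YAPC-iGLI2. The 4 that fell kept their calls in all 14 alternatives, as did TSPAN8, while those of GPX2 and PLS1 were lost without certain single libraries. The list thus held genes that moved either way. CEACAM5 and CEACAM6, which were picked on this comparison, had larger log2 differences than any of its tested genes.

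**Figure D4:**
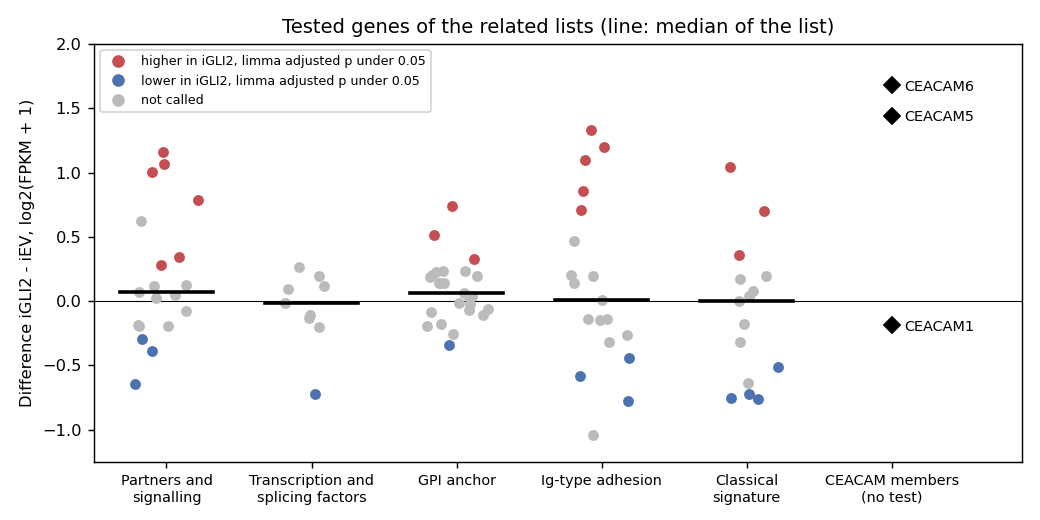
Difference of the group means of log2(FPKM + 1), YAPC-iGLI2 minus YAPC-iEV, for the tested genes of the related lists (circles, red or blue where limma's adjusted p over all genes is under 0.05, black lines at the medians) and the 3 members above 1 FPKM (diamonds, no test). The medians lie between -0.01 and 0.07, and CEACAM5 and CEACAM6 stand at 1.44 and 1.68.

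The genes whose pattern over the 6 libraries was most like that of a member were found by Euclidean distance in log2(FPKM + 1) centred on each gene's mean, among the 12493 genes tested. Nearest to CEACAM5 were PTHLH (distance 0.138), WNT7A (0.154) and S1PR1 (0.186). PTHLH was at 0.265, 0.182 and 0.219 FPKM in YAPC-iEV and 1.98, 2.66 and 3.21 FPKM in YAPC-iGLI2, with the same order of the induced libraries as CEACAM5. Mean levels of PTHLH, WNT7A and S1PR1 were 0.222, 0.106 and 0.0857 FPKM in YAPC-iEV and 2.62, 2.13 and 2.06 FPKM in YAPC-iGLI2. These genes thus reached the minimum mean of 1 FPKM only through the YAPC-iGLI2 libraries. Their ratios of the mean FPKM ran from 11.8 (PTHLH) to 24.1 (S1PR1), against 3.67 for CEACAM5. They were near CEACAM5 because 1 was added to small values, and they were not near it in ratio. Nearest to CEACAM6 were TRIM7 (0.237), FGFR2 (0.239) and RDH10 (0.242). FGFR2 was at 4.18, 3.60 and 3.10 FPKM in YAPC-iEV and 14.3, 13.4 and 14.2 FPKM in YAPC-iGLI2. CEACAM1 was matched most closely by CNOT4 (0.0682), PHLDB1 (0.0897) and PLEKHA6 (0.0898). CEACAM5 and CEACAM6 were 0.721 apart, and 231 genes other than members were closer to CEACAM5 than CEACAM6 was, and 92 closer to CEACAM6 than CEACAM5 was. With 6 libraries in 2 groups the distance reflects mainly the size of the group difference in log2(FPKM + 1).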

How the data were processed

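RNA was extracted with a Qiagen kit and libraries were made from total RNA with the Illumina TruSeq RNA kit. The authors used Trimmomatic for trimming, TopHat2 for alignment (hg19) and, per the submitters' processing notes, Cuffdiff 2.1.1. Their deposited table was read as FPKM, a unit inferred from its values since its header names none. It has 27024 entries. Those outside primary chromosomes (1252) and 330 lower entries of repeated names were left out, and 0 value columns lacked a sample. Read depth is unknown, so no counting error is given.

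log2(FPKM + 1) of the 12493 genes whose mean reached 1 FPKM was fitted with limma 3.58.1 (R 4.3.3, variance trend, condition as the only term), two-sided, with Benjamini-Hochberg adjustment over all of them and a threshold of 0.05. The fit was tested on simulated data. Calls in lists come from this fit. An exact permutation test of 3 against 3 libraries cannot give a p below 0.1, and none was used. The p-values measure only the spread between these libraries. Groups and replicate numbers came from the sample labels.

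The members and lists were chosen with earlier results of these data known. Named are the members, other CEA family genes with at least 0.1 FPKM in a library, in each other list the called genes with the 4 smallest p in each direction, and the 3 genes nearest to each member above 1 FPKM. Genes outside this rule are named as values, and 1 called partner gene is not reported here. Sequences came from the supplementary primers and, for 4 of 5 members, RefSeq (GRCh38.p14). Motif counts, alignments (Biopython 1.88) and exon overlaps (GENCODE release 44 on GRCh37) were computed in Python 3.11.15 with numpy 2.4.6, pandas 2.3.3 and matplotlib 3.10.9. Alternatives were another pseudocount, scalings, filters and limma without trend, a replicate block and leaving out each library.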

Additional observations from a re-analysis of the deposited data

How the results depend on the processing

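The differences of CEACAM1, CEACAM5 and CEACAM6 kept their direction in all 10 alternatives. With each library left out in turn they ranged from -0.24 to -0.09 for CEACAM1, 1.32 to 1.59 for CEACAM5 and 1.55 to 1.83 for CEACAM6, and from -0.37 to -0.13 for CEACAM19 and 0.00 to 0.01 for CEACAM7. A pseudocount of 0.1 gave 1.80 for CEACAM5, -0.47 for CEACAM19 and 0.05 for CEACAM7. Calls over all genes ranged from 1223 to 3753 with a library left out, against 2742 with all 6. They were 1223 without YAPC-iEV replicate 2, 1303 without YAPC-iEV replicate 3, 1357 without YAPC-iGLI2 replicate 2, 1510 without YAPC-iGLI2 replicate 3 and 3753 without YAPC-iGLI2 replicate 1, so calls in the lists depend on single libraries. The lists ranged over 5 to 11 calls for partners, 0 to 2 for transcription and splicing factors, 1 to 6 for GPI anchor genes, 4 to 7 for other adhesion genes, 5 to 8 for the classical signature, 0 to 4 for neighbours and 0 to 0 for the other CEA family. Leaving out small RNA genes and rescaling gave 7 GPI anchor calls, and over all genes 59.3% of calls higher against 46.0% as deposited, with the median log2 difference at 0.06. A minimum mean of 5 FPKM, which tests fewer genes, gave 5 calls among other adhesion genes and 1 among neighbours. With the replicate number as a block, 3928 genes were called, 5 of them neighbours and 12 of them other adhesion genes. Deviations of libraries with the same number had correlations of 0.204, 0.0919 and 0.0276. Those of libraries with different numbers ranged from -0.193 to 0.117. The numbers were not taken to pair the samples. The sample codes in the labels end in different letters for YAPC-iEV replicate 3 and YAPC-iGLI2 replicate 3. What the codes stand for is not given in those labels. The cause of these shifts was not tested. Depth is not known, and levels under 1 FPKM, CEACAM7 and CEACAM19 among them, carry the least information.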
